A study of Mus musculus with 14 samples.

Results

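The genes analyzed here are 8 genes of fat breakdown and of the adrenergic signal that starts it: Pnpla2, Lipe, Mgll, Abhd5, G0s2, Plin1, Adrb1, and Adrb3. They were chosen by name, as 8 of 21853 protein-coding genes, and every listed ChIP-seq peak in a gene body or within 50 kb of it was read. A promoter ran from 1000 bp upstream to 100 bp downstream of an annotated start site. CRTC2 peaks were listed at the Abhd5, Pnpla2, and Lipe promoters after treatment and at no member promoter in control cells. The other 5 genes had neither a CRTC2 peak nor an H3AcK27 region at a promoter in any library, which for H3AcK27 was also true of 46.7% of all genes.

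Adipocytes store triglyceride in lipid droplets and release it as fatty acids and glycerol. Pnpla2 encodes adipose triglyceride lipase (ATGL), which removes the first fatty acid, Lipe encodes hormone-sensitive lipase, which acts next, and Mgll encodes monoglyceride lipase, which completes the breakdown. Abhd5 (CGI-58) is the coactivator of ATGL and G0s2 is its inhibitor. Plin1 (perilipin) coats the droplet and holds Abhd5 until protein kinase A phosphorylates it. Adrb1 and Adrb3 encode β-adrenergic receptors, which raise cAMP, and cAMP also brings the coactivator CRTC2 into the nucleus, where it works with CREB at cAMP response elements (CREs).

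Chromatin came from 3T3-L1 adipocytes, a mouse cell line of fat cell precursors that was differentiated for 4 days. Cells were left with no treatment (control) or were treated for 1 h with 10 µM forskolin (FSK), which activates adenylyl cyclase, with TNFα, an inflammatory cytokine that activates NF-κB, or with FSK and TNFα together. Antibodies were directed against CRTC2, the NF-κB subunit p65, and histone H3 acetylated at lysine 27 (H3AcK27), a mark found at promoters and enhancers in use. There was 1 library for each of the 12 antibody and treatment combinations, so no difference below has a replicate check, no test was possible, and more cells with a bound site cannot be told apart from more binding per cell. Libraries held 9832884 (H3AcK27 with FSK) to 31807394 tags (CRTC2 with both agents). Peaks that missed the threshold do not appear in a list and cannot be read as absent. The lists held 5188, 11749, 19527, and 14171 CRTC2 peaks in control, FSK, TNFα, and FSK/TNFα cells, and 214, 2969, 2404, and 4221 p65 peaks. H3AcK27 regions numbered 52321, 38684, 49754, and 42227 and took up 64.9%, 48.6%, 66.7%, and 50.9% of the tags. Levels are tags per 10000000 library tags (normalized tags), as deposited.

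The label of adipocyte was read against H3AcK27 at marker promoters. Of 7 adipocyte markers, 2 had a promoter region in each library, Pparg and Fabp4, and their summed level was 390, 83.4, 262, and 93.3 normalized tags in control, FSK, TNFα, and FSK/TNFα cells. Adipoq, Cebpa, Cidec, Lep, and Cd36 had none in any library. Of 5 preadipocyte markers, 4, 3, 4, and 4 had a region, with summed levels of 1895, 1157, 1941, and 1580 normalized tags, and Cd34 had none. Of 5 macrophage markers, 1, 1, 2, and 2 had one, with sums of 165, 13.2, 625, and 119 normalized tags, and Adgre1, Ptprc, and Itgam had none. The part of these marker levels in the values below was not tested.

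The sequences upstream of 4 start sites are shown because 3 of them stand beside a CRTC2 peak and 1 does not. Each is 250 bases before a RefSeq start site in GRCm38.p6, read 5′ to 3′ on the strand of the gene, with the CRE core TGACG on either strand in capitals. Abhd5, Pnpla2, and the inner Lipe start site carried CRTC2 after treatment, whereas Adrb1 carried none.
Abhd5, chr9:122351366-122351615, plus strand: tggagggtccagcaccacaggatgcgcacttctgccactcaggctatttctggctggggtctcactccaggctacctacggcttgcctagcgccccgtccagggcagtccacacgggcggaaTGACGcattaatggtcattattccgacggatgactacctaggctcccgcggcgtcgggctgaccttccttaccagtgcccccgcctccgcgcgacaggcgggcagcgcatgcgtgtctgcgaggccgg
Pnpla2, chr7:141454938-141455187, plus strand: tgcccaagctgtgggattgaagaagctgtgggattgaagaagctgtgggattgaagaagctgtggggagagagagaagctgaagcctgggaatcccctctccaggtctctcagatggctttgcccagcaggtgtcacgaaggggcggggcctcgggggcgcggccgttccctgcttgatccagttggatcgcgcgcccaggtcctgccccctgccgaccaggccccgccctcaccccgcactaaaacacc
Lipe, chr7:25390113-25390362, minus strand: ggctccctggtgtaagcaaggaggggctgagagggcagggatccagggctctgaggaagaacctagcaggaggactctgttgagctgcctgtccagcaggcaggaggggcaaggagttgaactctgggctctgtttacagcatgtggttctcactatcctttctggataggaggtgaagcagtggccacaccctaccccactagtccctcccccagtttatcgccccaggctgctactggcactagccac
Adrb1, chr19:56721867-56722116, plus strand: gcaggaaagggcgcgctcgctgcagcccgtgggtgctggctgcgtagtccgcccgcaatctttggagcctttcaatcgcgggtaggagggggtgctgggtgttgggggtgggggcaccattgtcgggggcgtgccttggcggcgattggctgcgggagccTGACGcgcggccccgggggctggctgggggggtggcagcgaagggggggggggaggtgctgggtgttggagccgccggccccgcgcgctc
The Abhd5 sequence has 1 TGACG, 128 bases before the RefSeq start, and the Adrb1 sequence has 1, 90 bases before it. Pnpla2 and Lipe have none in these windows, and Adrb1, which has the core, had no CRTC2 peak at its promoter. The 4 windows were picked by their CRTC2 listing and end before the RefSeq start. They cannot show whether the core and a CRTC2 peak go together. TGACG was found in 17.7% of 32817 RefSeq windows of this length. RefSeq sequences were matched for 7 of the 8 genes, all but Adrb3. Of the others, G0s2 has 1 TGACG on the opposite strand 246 bases before its start, and Plin1 and both Mgll windows have none.

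CRTC2 was listed at the promoters of 0, 3, 3, and 2 of the 8 genes in control, FSK, TNFα, and FSK/TNFα cells. Among all protein-coding genes the shares were 11.8%, 27.4%, 39.9%, and 29.1%. Pnpla2 and Abhd5 had a promoter peak in all 3 treated libraries and not in control, a pattern seen in 12.5% of all genes. Lipe had one with either agent and with neither control nor the combination, as did 3.61% of genes. A promoter peak in at least 1 of the 4 libraries was listed for 3 members and for 43.1% of genes. H3AcK27 marked the promoters of the same 3 genes, Pnpla2, Lipe, and Abhd5, in all 4 libraries, compared with 45.4% of genes, and those of Mgll, G0s2, Plin1, Adrb1, and Adrb3 in none, compared with 46.7%. In single libraries, 3 of 8 members had an acetylated promoter throughout, beside 51.7%, 47%, 51.4%, and 49.1% of genes in control, FSK, TNFα, and FSK/TNFα cells. These shares are near the background. Among genes with an acetylated promoter, 22.7%, 56.6%, 76.9%, and 58.2% had a CRTC2 promoter peak in that library, and of the 3 acetylated members 0, 3, 3, and 2 did. Among the 5188 best-scored peaks of each list, Abhd5 alone had a promoter peak, in each of the 3 treated libraries, and at a minimum of 8-fold over input Pnpla2 was no longer listed with both agents.

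**Figure D1:**
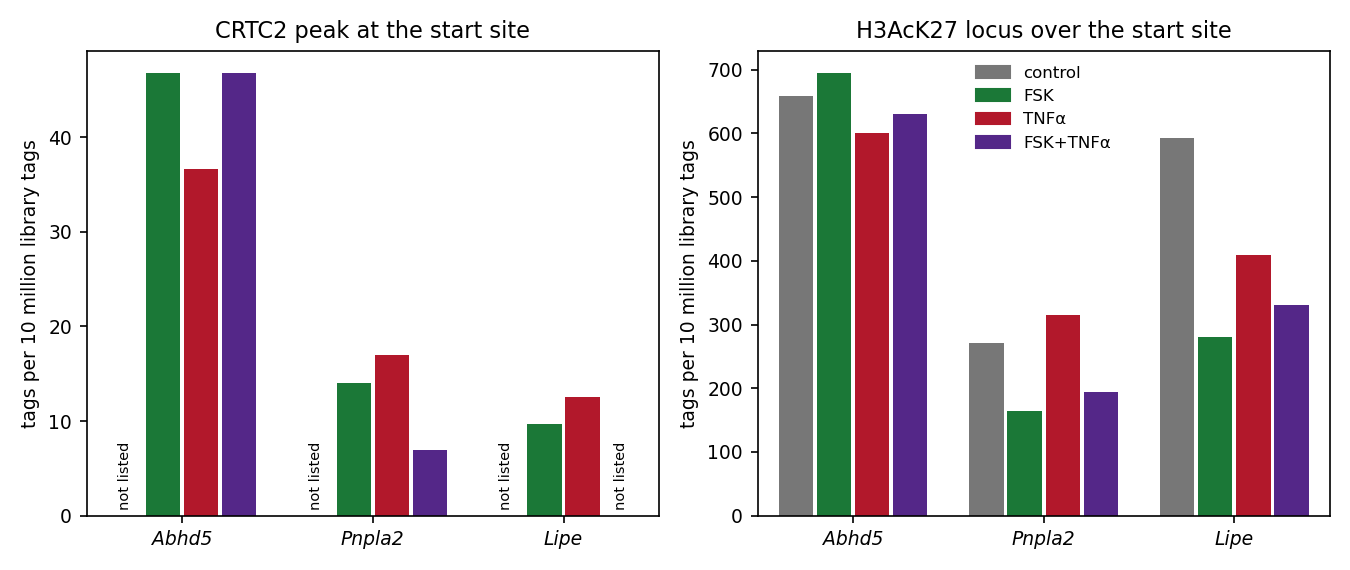
Bars give normalized tags (tags per 10000000 library tags, 1 library per bar) of the CRTC2 peak at the Abhd5, Pnpla2, and Lipe start sites (left) and of the strongest H3AcK27 locus over a start site (right) in control, FSK, TNFα, and FSK/TNFα cells. CRTC2 at Abhd5 was at 46.8, 36.6, and 46.8 in treated cells and the other bars on the left lie at or below 17.0, whereas H3AcK27 at the Lipe locus was lower in each treated library than the 593 of control. The Lipe bars for FSK and FSK/TNFα come mostly from a region of the locus that does not reach a start site.

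Abhd5 (ENSMUSG00000032540, chr9:122351608-122381524, plus strand) held the strongest CRTC2 peak at a member promoter. No peak was listed in control cells. The peak had 46.8 normalized tags with FSK, 36.6 with TNFα, and 46.8 with both, which correspond to 77, 97, and 149 tags. Its score ranked 434 of 11749, 776 of 19527, and 204 of 14171, within the best-scored 3.69%, 3.97%, and 1.44% of those lists. The midpoints lay 59, 35, and 33 bp downstream of the start site at 122351730, over the 5′ UTR and first coding bases, and fold over input was 21.23, 94.17, and 21.23. Levels in the treated libraries differed by less than 1.5 times, and the list does not give a value for control. The peaks began 221, 199, and 194 bases downstream of the TGACG shown above, so that element lay outside them.

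Away from the promoter, 2 further Abhd5 loci were listed in both libraries that contained FSK and in neither of the others. They were the only such loci in the 8 windows, 4% of 50, compared with 6.42% of 33769 CRTC2 loci in the genome. The pattern is therefore no more frequent here than over all loci. The first lies in an intron, 27.5 kb from the most upstream start site, with 11.6 normalized tags with FSK and 8.17 with both. It is printed because it holds the only full CRE, TGACGTCA, among the 50 CRTC2 loci of the 8 windows. The second lies downstream of the gene, 69.4 kb from that start site, with 20.7 and 24.8 normalized tags, and has no TGACG. Peaks are given as listed in FSK/TNFα cells, on the plus strand of GRCm38, with TGACG on either strand in capitals, where the full CRE appears as one run because it reads the same on both strands.
Abhd5 intron, chr9:122379057-122379219: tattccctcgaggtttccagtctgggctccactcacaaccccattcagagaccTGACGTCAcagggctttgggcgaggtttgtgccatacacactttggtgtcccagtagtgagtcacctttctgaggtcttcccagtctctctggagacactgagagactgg
Abhd5 downstream, chr9:122420970-122421132: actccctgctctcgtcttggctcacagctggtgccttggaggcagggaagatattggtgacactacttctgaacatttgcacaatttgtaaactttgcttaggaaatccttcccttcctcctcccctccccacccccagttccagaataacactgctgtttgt
A full CRE was present in 2.83% of FSK and 2.96% of FSK/TNFα CRTC2 peaks in windows of 200 bp, compared with 1.2% in control and 1.12% with TNFα. The intron window also held an AP-1 sequence (TGACTCA or TGAGTCA). With TNFα alone, another Abhd5 peak was listed 14.7 kb upstream, with 6.04 normalized tags. With both agents a peak of 5.03 normalized tags lay 40.7 kb upstream, nearer to the start of Ano10.

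Acetylation at the Abhd5 start site had 658, 695, 600, and 630 normalized tags in control, FSK, TNFα, and FSK/TNFα cells. These correspond to ratios over control of 1.06, 0.912, and 0.957. A second locus, at the inner start site at 122363653, had 84.8 normalized tags in control and 39.7 with FSK, 0.468 times control. It was not listed with TNFα or with both agents. Per kilobase it had 28.5 and 23.4, and the regions listed with FSK lay at least 575 bp downstream of that start. At the intron locus the levels were 25.4, 97.6, 33.3, and 113 normalized tags. Both libraries with FSK stood above the other 2, at 3.84 and 4.45 times control, and 99.1% and 99.5% of all H3AcK27 loci had lower ratios. Per kilobase of region the levels were 19.3, 46.5, 17.3, and 26.6. On that scale the ratios were 2.41 with FSK and 1.38 with both, and 99.2% and 89.1% of all loci had lower ones. The input moved in the same direction, where control and TNFα shared an untreated input and the libraries with FSK shared an FSK input. It stood at 2.67, 8.41, 2.43, and 5.8 normalized tags per kb of these regions, against list medians of 4.5, 6.35, 4.59, and 5.16, and fold over input was 7.24, 5.53, 7.12, and 4.59. Thus the locus was higher with FSK in tags and lower in fold over input, and the part of the input in this difference was not tested. The downstream locus had 83.3, 131, 54.7, and 147 normalized tags, with 6.69-, 7.14-, 5.02-, and 7.42-fold over input, so that both libraries with FSK, which share an input, were higher on either scale. Per kilobase it had 41, 50.8, 28, and 40.8, and there the combination did not exceed control.

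**Figure D2:**
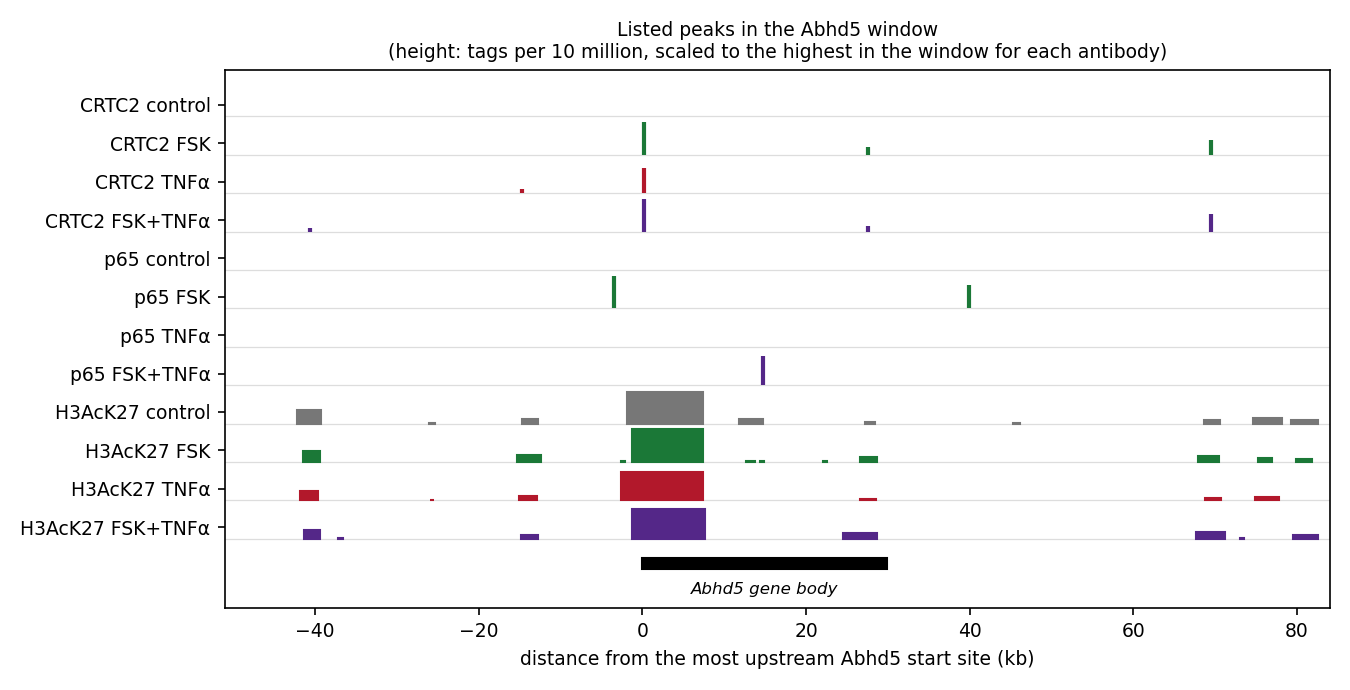
Listed peaks of the 12 libraries by distance (kb) from the most upstream Abhd5 start site, with height giving normalized tags scaled to the highest peak in the window for each antibody and the black bar the gene body. CRTC2 stands at the start site in the 3 treated libraries, and at 27.5 and 69.4 kb only in the FSK and FSK/TNFα libraries.

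Pnpla2 (ENSMUSG00000025509, chr7:141455198-141460743, plus strand) carried a weaker CRTC2 peak over its start site. None was listed in control cells, and the peak had 14.0 normalized tags with FSK, 17.0 with TNFα, and 6.92 with both (23, 45, and 22 tags). The combination was therefore the lowest of the treated libraries in tags, with scores of 11, 16, and 14 in the same order. Midpoints lay 23, 14, and 51 bp downstream of the nearest start site, in the 5′ UTR. TNFα cells had a further peak of 9.07 normalized tags 122 bp downstream of an inner start site, in an intron, and one of 12.1 normalized tags 2746 bp upstream. With both agents a peak of 6.29 normalized tags lay 2065 bp upstream. The region is dense, with 10 other protein-coding genes in the window, and of the 1, 7, 15, and 13 CRTC2 peaks there only 0, 1, 3, and 2 lay nearest to a Pnpla2 start site. The strongest of the neighbours was at Cd151, with 33.2 normalized tags in TNFα cells. Loci shared by at least 2 libraries lay at Gatd1, with 10.1, 23.1, 13.2, and 11.6 normalized tags in the 4 libraries, and at Rplp2, with 11.0, 17.8, and 13.5 in the treated ones. Polr2l had 11.6, 15.5, and 12.3, and a locus at Cd151 had 9.13, 18.5, and 17.0 with FSK, TNFα, and both. Another at Cd151 had 12.8, 28.0, and 26.1 normalized tags in the same order. The others, a second Gatd1 locus, 2 at Slc25a22, 1 at Pidd1, and a further one at Cd151, were listed with TNFα and with both agents only, at 8.49 to 33.2 normalized tags. H3AcK27 over the Pnpla2 start site had 271, 164, 315, and 194 normalized tags in control, FSK, TNFα, and FSK/TNFα cells. Both libraries with FSK were lower, but the level per kilobase was 61.9, 61.5, 66, and 55.5, and the regions were 4378, 2663, 4778, and 3503 bp long.

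Lipe (ENSMUSG00000003123, chr7:25379527-25398710, minus strand) has several start sites, and CRTC2 was listed at an inner one at 25390106. The peak had 9.73 normalized tags with FSK and 12.5 with TNFα (16 and 33 tags) and was listed neither in control nor with both agents. Its midpoints lay 41 bp upstream and 22 bp downstream of that start. TNFα cells had another peak, of 9.82 normalized tags, in the 5′ UTR 766 bp downstream of the start site at 25396379. In control a peak of 10.6 normalized tags lay past the end of the gene, and in FSK cells one of 9.13, and both were nearest to Cnfn. The acetylated locus that spans the inner start site was lower than control in tags in each treated library. The locus had 593 normalized tags in control. It had 281 after FSK, 409 after TNFα, and 331 after both agents, ratios of 0.474, 0.69, and 0.559. Per kilobase the levels were 73.3, 61.7, 67.9, and 60.4. The control region was continuous over 8086 bp with 14.51-fold enrichment over input, whereas with FSK and with both agents it was listed as 2 regions, with 7.63- and 6.67-fold and 8.76- and 6.83-fold enrichment. In each pair only the second region reached the inner start site, with 95.6 normalized tags with FSK and 70.3 with both. The first, with 185.1 and 260.8, lay 912 and 705 bp from the nearest start site. The ratios above are thus those of the whole locus. The FSK and FSK/TNFα values rest on the same FSK input, and the control value on the untreated input. A ratio lower than that of Lipe was found at 20.3%, 18.7%, and 29.6% of all loci. The outer Lipe locus had 106, 65.1, 103, and 53.2 normalized tags, and per kilobase 41.4, 43.5, 36.6, and 41.

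Mgll (ENSMUSG00000033174, chr6:88724412-88828360, plus strand) had no CRTC2 or H3AcK27 entry at its promoter. A CRTC2 peak with 7.86 normalized tags was listed with both agents only, in an intron 22.1 kb from the most upstream start site, and held TGACG 58 bp from its midpoint. The other CRTC2 peaks of its window, 6.6 to 12.1 normalized tags in the treated libraries, lay at Abtb1. H3AcK27 in the gene body was weak. The strongest intronic region, 49606 bp downstream of the nearest start site, had 56.2, 19.3, 50.1, and 16.7 normalized tags. Per kilobase it had 28.8, 25.8, 27.2, and 25.3, over listed regions of 1950, 748, 1844, and 661 bp. Tags over a common interval were not compared.

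G0s2 (ENSMUSG00000009633, chr1:193272161-193273217, minus strand) had no CRTC2 peak nearer than 30647 bp, where TNFα cells had one of 6.04 normalized tags, 1621 bp from the Lamb3 start. Its window held 9, 0, 6, and 1 H3AcK27 regions in control, FSK, TNFα, and FSK/TNFα cells. The nearest, of 102.9 normalized tags, lay 3952 bp upstream of the start site and was listed in control cells only. Plin1 (ENSMUSG00000030546, chr7:79720218-79732903, minus strand) had 3 CRTC2 peaks in its window with TNFα, at 5.29 to 10.6 normalized tags, and 1 with both agents, at 8.49. None lay in the gene or nearest to its start sites. No H3AcK27 region lay in the gene either, and the nearest ones lay 7363 bp from a start site in control and 6703 bp from it with TNFα. The strongest region in the window, nearest to Mesp1, had 551, 139, 604, and 203 normalized tags, 0.253 and 0.368 times control in the libraries with FSK. Per kilobase it had 122, 49, 131, and 57.5.

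Adrb1 (ENSMUSG00000035283, chr19:56722199-56733113, plus strand) had a single CRTC2 peak in its window, 21179 bp upstream, with 8.52 normalized tags (14 tags) in FSK cells, and it held TGACG 28 bp from its midpoint. An H3AcK27 region overlapped it in control and FSK cells, with 38.8 and 24.4 normalized tags. The nearest region to the receptor's start site was 12573 bp away in control, 12969 bp with FSK, 12370 bp with TNFα, and 32283 bp with both.

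Adrb3 (ENSMUSG00000031489, chr8:27225776-27250616, minus strand) had 1 CRTC2 peak near its own start sites, 2363 bp upstream, with 9.73 normalized tags in FSK cells. Strong peaks in the window lay at Eif4ebp1, a translation regulator. One, 30.6 kb upstream of the receptor, had 24.9 normalized tags in control, 51.1 with FSK, and 40.4 with TNFα, and was not listed with both. The other, 31.8 kb upstream, had 45.0, 80.1, and 47.5 normalized tags with FSK, TNFα, and both, and was not listed in control. The Eif4ebp1 region also held the strongest acetylation in any member window, at 3045, 2519, 3308, and 2531 normalized tags. Input tags were high there too. The H3AcK27 regions stood at 25.8, 34.4, 24.9, and 34.2 input tags per kb, 5.74, 5.41, 5.41, and 6.63 times the medians of their lists, and the highest input behind a CRTC2 peak in the window was 5.49, 7.5, 5.49, and 9.64 times the list median. All these values come from 2 input libraries, untreated and FSK, and the part of the raised input in these peaks was not tested.

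**Figure D3:**
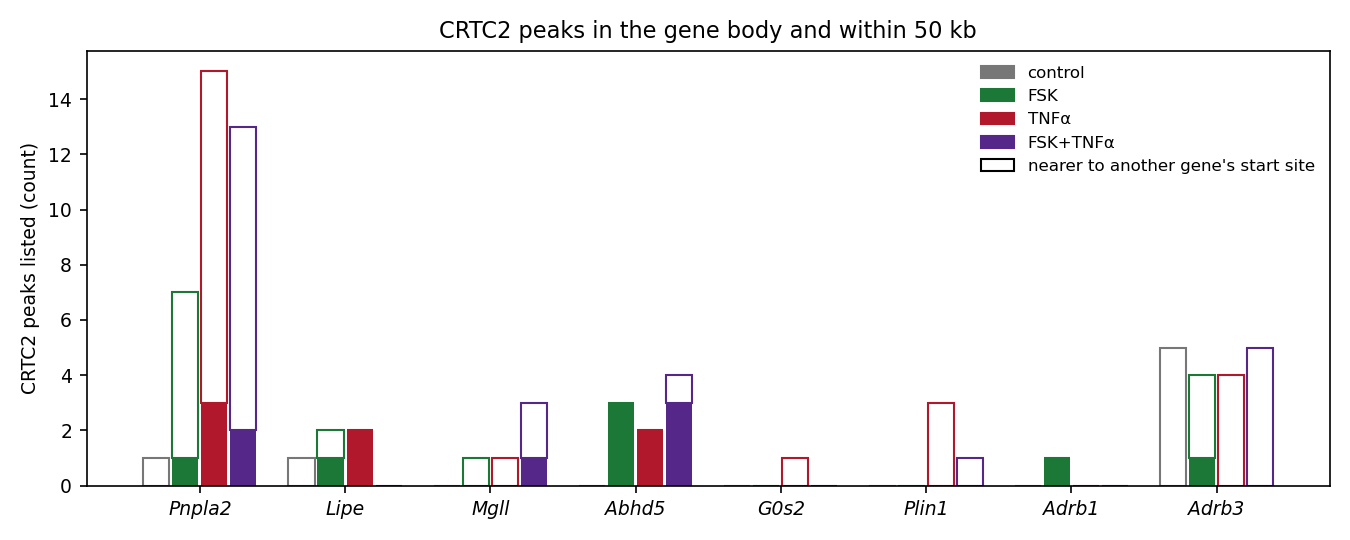
Number of CRTC2 peaks listed in the body and within 50 kb of each gene (1 bar per library). Filled parts are peaks nearest to a start site of the named gene and open parts are peaks nearer to another gene, which make up most of the 15 peaks at Pnpla2 with TNFα and all 5 at Adrb3 in control.

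Over the 8 windows, 7, 18, 28, and 26 CRTC2 peaks were listed in control, FSK, TNFα, and FSK/TNFα cells, of which 0, 7, 7, and 6 lay nearest to a start site of a member. Windows of 3, 6, 7, and 5 members held at least 1, beside 39.2%, 60.4%, 70.3%, and 64.5% of all genes. The peaks formed 50 loci, of which 32 were listed in 1 library, 8 in 2, 9 in 3, and 1 in all 4. These are 64%, 16%, 18%, and 2% of the loci, compared with 68.8%, 16.8%, 9.96%, and 4.37% of 33769 CRTC2 loci in the genome. Of the 50 loci, 8 (16%) were listed in all treated libraries and not in control, compared with 8.13% of all CRTC2 loci. These included the Abhd5 and Pnpla2 promoters, and the others lay nearest to start sites of Rplp2, Cd151, Polr2l, Abtb1, and Eif4ebp1. The locus listed in every library lay at the Gatd1 start site, 41.1 kb upstream of Pnpla2. TGACG lay within 100 bp of a peak midpoint at 11 of the 50 loci. By library it was found in 3 of 7, 5 of 18, 5 of 28, and 5 of 26 peaks, compared with 14.7%, 26.3%, 15.7%, and 25.2% of all CRTC2 peaks. None of the CRTC2 peaks at the Abhd5, Pnpla2, and Lipe start sites had it in that window.

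The 8 windows held 0, 6, 3, and 5 p65 peaks in control, FSK, TNFα, and FSK/TNFα cells. They lay in 0, 2, 2, and 2 of the 8 windows, beside 1.91%, 16.9%, 14.9%, and 22.3% of all genes. At promoters the counts were 0, 0, 0, and 1, against 0.0915%, 0.586%, 0.627%, and 1.01% of genes. The promoter peak was at Adrb3, 204 bp upstream of an inner start site and in an intron of a longer transcript, with 22.0 normalized tags (45 tags) in FSK/TNFα cells. Its score was 8, where the lowest in that list was 7, and ranked 777 of 4221, tied with other peaks. By tags it ranked 320, and its fold over input was 19.91. At Abhd5, p65 peaks of 30 and 21 tags lay 3473 bp upstream of the gene and downstream of it in FSK cells, and an intronic peak had 10.7 normalized tags with both agents. Another 9 of the 14 peaks lay in the Adrb3 window outside the gene. They had 12.4, 12.4, 28.5, and 21.7 normalized tags with FSK, 14.1 and 14.9 with TNFα, and 11.2, 9.76, and 13.7 with both. The peak of 28.5 stood on 40.9 input tags per kb, 9.02 times the list median. The remaining peak, of 9.66 in TNFα cells, lay at Tspan4 in the Pnpla2 window. Lipe, Mgll, G0s2, Plin1, and Adrb1 had no p65 peak in any library. No peak was listed in a second treatment, 3 of 14 lay in an H3AcK27 region of the same treatment, and 1 overlapped a CRTC2 peak of the same treatment. That site was at the Eif4ebp1 start site in TNFα cells, with 14.9 normalized tags of p65. The matching shares over all p65 peaks were not computed, so these counts cannot be read as particular to the 8 genes. The exact NF-κB consensus was found in none of the 14 windows of 200 bp. It was rare in all p65 peaks too, at 0.269% with FSK, 2.2% with TNFα, and 1.56% with both.

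Acetylated regions in the windows numbered 54, 37, 40, and 35 across the control, FSK, TNFα, and FSK/TNFα lists and covered 128991, 79840, 111077, and 85169 bp. At least 1 region was present at 8, 7, 8, and 8 of the 8 genes, beside 81.1%, 78.8%, 80.8%, and 79.8% of all genes. Regions of the 4 lists were merged into loci where they overlapped. Of 28 member loci listed in both control and FSK cells, 1 was at least 2-fold higher with FSK and 7 at least 2-fold lower, against 4.92% and 22.7% of all such loci. With TNFα the counts were 1 and 3 of 36, against 5.79% and 7.68%, and with both agents 1 and 4 of 25, against 4.47% and 25%. The median ratios over control were 0.677, 0.919, and 0.765 at the members, and 0.776, 1, and 0.809 over all loci. These ratios are of summed tags and move with the length of the listed regions. Per kilobase of region, the medians were 1.02, 0.932, and 0.915 at the members and 1.06, 1.01, and 0.951 over all loci. On that scale, 1 member locus was at least 2-fold higher with FSK and 1 at least 2-fold lower, against 2.54% and 0.677% of all loci. With TNFα there were 0 and 0, against 0.398% and 0.313%, and with both agents 0 and 1, against 0.894% and 3.77%. The locus that was higher in summed tags with FSK and with both agents was the Abhd5 intron locus, which per kilobase was 2.41 times control with FSK. The locus lower per kilobase was the one at Mesp1 in the Plin1 window, at 0.401 with FSK and 0.471 with both agents. The locus higher in summed tags with TNFα lay at Kif7 in the same window, with 34.3 against 11.2 normalized tags but 22.6 against 22.4 per kilobase.

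**Figure D4:**
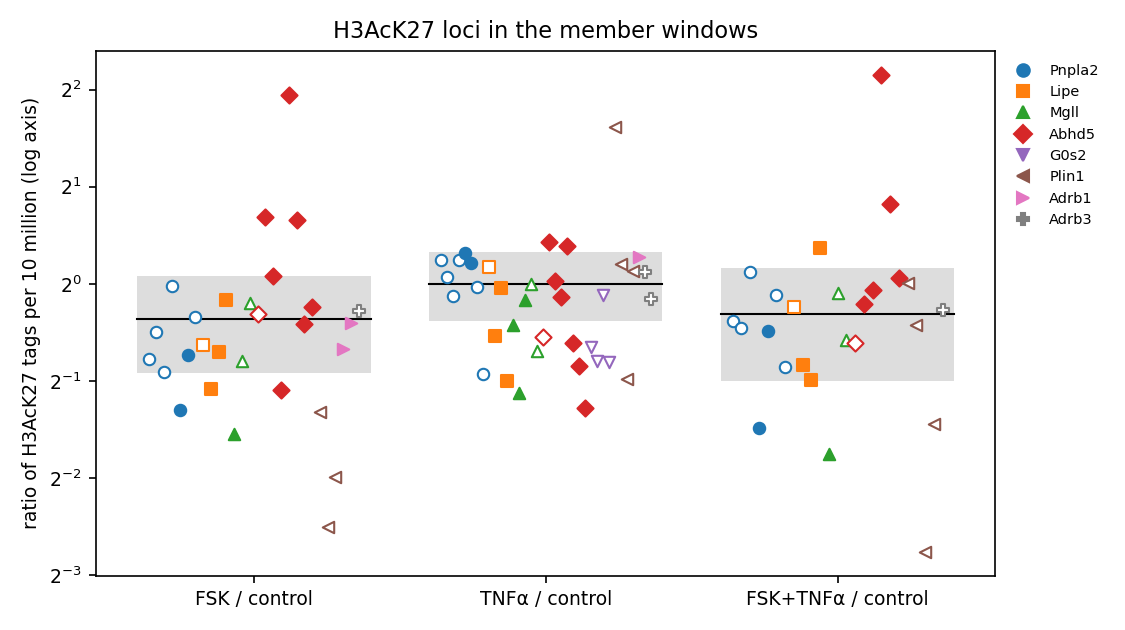
Ratio of summed H3AcK27 normalized tags, not per kilobase, over control (log axis) for loci in the windows of the 8 genes, 1 point per locus, filled where the nearest start site belongs to the named gene. Lines and grey bands are the median and quartiles over all loci, and the highest FSK and FSK/TNFα points, at 3.84 and 4.45, are the Abhd5 intron locus.

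The other 42 genes of lipolysis and its control were read in the same way. CRTC2 was listed at the promoters of 9, 15, 16, and 12 of them in control, FSK, TNFα, and FSK/TNFα cells, and H3AcK27 at 22, 19, 23, and 21. The shares of all genes were 11.8%, 27.4%, 39.9%, and 29.1% for CRTC2 and 51.7%, 47%, 51.4%, and 49.1% for H3AcK27. Genes with CRTC2 in all 3 treated libraries numbered 11, or 26.2%, beside 20.8% of all genes. They were Gnas and Gnai2, which encode G protein subunits, Prkaca, Prkacb, Prkar1a, and Akap1 of the protein kinase A system, the droplet proteins Plin2 and Hilpda, the lipases Pnpla8 and Ddhd2, and the fatty acid carrier Fabp5. Hilpda, which like G0s2 inhibits ATGL, had 10.6, 49.9, 54.4, and 38.7 normalized tags of CRTC2 in control, FSK, TNFα, and FSK/TNFα cells, and 354, 525, 508, and 726 of H3AcK27. Prkar1a had 14.8, 35.9, 37.8, and 28 of CRTC2, and Plin2 had none in control and 15.8, 12.1, and 19.2 in treated cells. p65 was listed at the promoters of 4 of the genes, or 9.52%, beside 2.1% of all genes. They were Fabp4 with FSK and with both agents, at 12 and 14.2 normalized tags, Prkacb with TNFα, at 13.4, and Plin4 and Cd36 with both agents, at 10.7 and 12.2. No acetylated promoter was found in any library for 19 of the 42 genes, or 45.2%, near the 46.7% of all genes, among them the receptors Adra2a, Adora1, Ptger3, Hcar1, Hcar2, Npr3, and Mc5r.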

How the data were processed

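The 12 peak lists cover 3 antibodies and 4 treatments of 3T3-L1 adipocytes, with 1 library per list and groups taken from the sample labels. STAR, HOMER, and the build mm10 are named in the submitters' processing notes, without versions. The authors called peaks in each library with HOMER against an untreated input (control and TNFα) or an FSK input (FSK and FSK/TNFα). As deposited, signal is the tag count of a peak scaled to 10000000 tags per library. The deposited score is not corrected for input and serves only to rank peaks within a list. Fold, also deposited, is the ratio of peak tags to input tags, for which the authors set a minimum of 4. Input levels were taken as signal divided by fold.

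Protein-coding genes and their start sites came from GENCODE M21 (GRCm38). Peaks were shared at an overlap of at least 1 bp. Promoter sequences are RefSeq, GRCm38.p6, and 9 of them were compared with the genome sequence, with 0 differences. Motifs were matched exactly on both strands. The members and gene lists were chosen with earlier results of these data known. The text gives each CRTC2 and p65 peak at a promoter or in a gene body, each CRTC2 locus in at least 2 libraries or in the best-scored 10% of a list, each p65 peak, and H3AcK27 over start sites, with the rest as counts and ranges. Other pathway genes were named for CRTC2 at the promoter in all 3 treated libraries or for p65 there, and neighbours where a peak lay nearer to them. G0s2, Plin1, Adrb1, and Mgll regions away from start sites, Hilpda acetylation, and receptors without peaks were named after their values were seen. Library depth ranged from 9832884 to 31807394 tags, so weaker peaks can be missed in the shallower lists. Alternatives covered the window, promoter extent, start sites, an 8-fold threshold, lists of equal size, and the overlap and motif rules. Acetylation ratios per kilobase were added after seeing the data. The code was tested on simulated data. Python 3.11.15, pysam 0.24.0, and matplotlib 3.10.9 were used. Sequencing reads were not analysed here.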

Additional observations from a re-analysis of the deposited data

Results flagged for a closer look

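The direction of the FSK difference in CRTC2 turned with TNFα at 2 member promoters, with a peak that is not listed counted as no signal. With control not listed, the first change could only be upward. Over all genes, promoter peaks also fell from 39.9% with TNFα to 29.1% with both agents. At Pnpla2 the level went from not listed in control to 14.0 normalized tags with FSK, but from 17.0 with TNFα to 6.92 with both agents. At the inner Lipe start site it went from not listed to 9.73 with FSK, and from 12.5 with TNFα to not listed with both. Each value is 1 library, a peak that is not listed may lie just under the threshold, and the difference between these changes was not tested.

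Input tags were raised at the strongest acetylated region of the Adrb3 window, over Eif4ebp1. Per kilobase they stood at 5.74 times the list median in control, 5.41 with FSK, 5.41 with TNFα, and 6.63 with both, from 2 input libraries. Only 0.137% to 0.186% of regions in any of the 4 lists had a higher input level.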

How the results depend on the processing

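Of 110 recomputed counts, 52 stayed within 1.5 times the reported one and 58 did not. In the following, values are in the order control, FSK, TNFα, and FSK/TNFα, and "kept" stands for a count within 1.5 times. CRTC2 peaks in the windows (7, 18, 28, and 26) became 2, 10, 15, and 9 within 10 kb, 14, kept, 45, and kept within 100 kb, 0, 7, 7, and 6 when nearest to a member, 1, kept, kept, and 16 at 8-fold over input, and kept, 6, 5, and 8 in lists of equal size. p65 peaks (0, 6, 3, and 5) became kept, kept, 1, and 3 within 10 kb, 1, kept, kept, and 10 within 100 kb, kept, 2, 0, and 2 when nearest to a member, kept, kept, 1, and 3 at 8-fold, and 3 with both agents in lists of equal size. H3AcK27 regions (54, 37, 40, and 35) became 19, 17, 19, and 19 within 10 kb, 90, 69, 73, and 65 within 100 kb, 20, 19, 17, and 16 when nearest to a member, and 22, 10, 14, and 14 at 8-fold. Wider and narrower windows and stricter thresholds change these counts by construction. Members with a CRTC2 promoter peak went from 3 to 1 with FSK at the most upstream start site, where Pnpla2 alone was left, to 1 with FSK, TNFα, and both in lists of equal size, where Abhd5 alone was left, and from 2 to 1 with both at 8-fold, again Abhd5. At the most upstream start site Abhd5 was still listed with TNFα and with both agents. Its FSK peak began at 122351709, just past the end of that promoter window. With acetylated promoters, 3 became 1 with FSK and with both at 8-fold and with TNFα in lists of equal size. The 18 shared CRTC2 loci were highest with TNFα in 11 and with both in 3 by tags, but in 6 and 8 by score, and 5 were highest with both by fold over input. Per kilobase of region, a scale added after seeing the data, H3AcK27 loci at least 2-fold higher than control went from 1 to 0 with TNFα and with both agents, and those at least 2-fold lower from 7, 3, and 4 to 1, 0, and 1 with FSK, TNFα, and both. CRTC2 loci with a CRE numbered 11 with TGACG and 1 with TGACGTCA. A promoter of 2000 bp upstream to 500 bp downstream kept all 8 promoter counts. No paired analysis was possible because each group had 1 library. The shallowest library was H3AcK27 with FSK, at 9832884 tags, and how depth limits each list was not tested.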
